A study of Homo sapiens with 2 samples.

Results

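NF-kB is a family of transcription factors, and 10 of its target genes whose products stay in or on the cell were followed in melanoma cells (the human line SK-MEL-2, per the labels). The genes were taken by symbol: TNFAIP2, TNIP1, TRAF1, SOD2, ICAM1, BIRC2, BIRC3, CD83, IRF1 and IER3. They match 11 of the 60527 entries of the deposited expression table, since SOD2 has 2 entries. The choice rested on gene function, and earlier results of these data were known when it was made. RNA came from 1 culture given DMSO, the solvent control, and from 1 given 1.75 µM JNJ-7706621, a small-molecule inhibitor of cyclin-dependent and Aurora kinases, both for 48 h. The series title concerns AUF1, a protein that binds AU-rich mRNA, and the decay of such mRNA. The table holds a further column named like a second replicate of each group, but these match no sample described here and were not analysed here. With 1 library used in each group there is no spread between cultures, so no difference was tested. Values are FPKM, fragments scaled to the length of the gene's exons and to the size of the library.

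NF-kB is held in the cytoplasm by inhibitor proteins until a receptor of cytokines, microbial products or stress activates a kinase complex that marks the inhibitors for destruction. Freed dimers bind short DNA elements called kB sites, near or far from gene starts. Some of the genes they switch on keep the cell alive (BIRC2, BIRC3, TRAF1, SOD2, IER3), others change its surface (ICAM1, CD83), and others feed back on the pathway or pass the signal on (TNIP1, IRF1).

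Depth was similar in both libraries, with totals recovered from the table of 23377161 reads (DMSO) and 22817719 reads (JNJ-7706621). Markers of the labelled cell type were mostly absent: 8 of 10 melanocyte markers had a mean below 1 FPKM, and TYR, PAX3, EDNRB and S100B had 0 reads in both libraries. All 8 epithelial markers passed 1 FPKM, with KRT8 at 720.0 and 703 FPKM in the DMSO and JNJ-7706621 libraries. The melanocyte markers summed to 4.92 and 6.25 FPKM and the epithelial ones to 2288 and 2283 FPKM. None of 8 leukocyte, 5 endothelial and 6 fibroblast markers reached a mean of 1 FPKM. The leukocyte markers summed to 0.834 and 1.37 FPKM, and PTPRC, which encodes the pan-leukocyte antigen CD45, had 0 reads in both libraries. The endothelial markers summed to 0.147 and 0.299 FPKM and the fibroblast markers to 0.251 and 1.23 FPKM. The part of these shifts in the results was not tested.

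Matches to the kB consensus near the gene starts are shown first, because kB sites are the DNA elements that NF-kB binds. The 10 genes were chosen as NF-kB targets, though not by a search for such matches. Their share beside that of all promoters is therefore a description and no support. RefSeq promoters on GRCh38.p14, each from 250 bases before to 50 after a start, were listed for 9 of the 10 genes, 17 promoters in all, and IER3 was not matched. The 10-base kB consensus, searched on both strands, was found in promoters of 4 genes, that is in 4 of the 17 promoters (23.5%), against 5.91% of 35116 promoters of the same length. The lines below give 30 bases on the strand of the gene, with the match in capitals.
TNIP1: ccagtctccgGGGACTTTCCcaggggtggg
CD83: gctgcccgccGGGGAATCCCccgggctggc
IRF1: ggccagggctGGGGAATCCCgctaagtgtt
BIRC3, upstream match: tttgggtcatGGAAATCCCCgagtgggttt
BIRC3, downstream match: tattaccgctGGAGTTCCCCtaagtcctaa

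These windows lie at chr5:151081057-151081086 (TNIP1), chr6:14117686-14117715 (CD83), chr5:132490804-132490833 (IRF1), chr11:102317275-102317304 and chr11:102317339-102317368 (BIRC3). The matches begin 42, 76, 50, 199 and 135 bases before the start of a RefSeq transcript, in that order. For TNIP1 and CD83, with 2 promoters each, this start lies inside the span of the gene given below. The CD83 match is 1 of 3 that overlap each other, and the BIRC3 matches read on the opposite strand. The CD83 and IRF1 matches have the same letters. TNFAIP2, TRAF1, SOD2, ICAM1 and BIRC2 had no match in these windows, which says nothing of sites elsewhere.

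The GAS motif TTCNNNGAA, the element of STAT factors, was found in promoters of ICAM1 and IRF1 and in 7.66% of all promoters. It reads the same on both strands. The windows lie at chr19:10271035-10271064 (ICAM1) and chr5:132490878-132490907 (IRF1), with the match beginning 75 and 124 bases before the start.
ICAM1: ggcgcgaggtTTCCGGGAAagcagcaccgc
IRF1: acagcctgatTTCCCCGAAatgacggcacg

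The TATAAA motif, searched on both strands, was found in promoters of ICAM1 and CD83, and in 11.5% of all promoters. The ICAM1 match begins 30 bases before the start. The CD83 matches begin much further off, 243 (opposite strand) and 236 bases before a CD83 start. The AP-1 motif TGANTCA, on both strands, was found in none of the 17 promoters and in 7.71% of all. A match describes the letters in the window, and binding was not measured.

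The 10 genes spanned a wide range of levels, with TNFAIP2 highest in both libraries. In the DMSO library the order by FPKM, a scale per exon length, was TNFAIP2, IER3, TNIP1, SOD2, BIRC2, BIRC3, IRF1, ICAM1, TRAF1 and CD83, from 129 down to 0.431 FPKM. In the JNJ-7706621 library the first 4 places held the same genes, BIRC3 and ICAM1 stood above BIRC2, and CD83 stood above TRAF1. Neighbours whose 95% counting intervals overlapped were ICAM1 (1.40 to 1.98 FPKM) and TRAF1 (1.15 to 1.51 FPKM) in the DMSO library, and BIRC3 (8.90 to 9.83 FPKM) and ICAM1 (8.05 to 9.37 FPKM) in the JNJ-7706621 library. The genes together took 0.122% of the DMSO library and 0.251% of the JNJ-7706621 library, and TNFAIP2 alone took 0.0647% and 0.135%. Fewer cells that express a gene and less RNA per cell cannot be told apart in such bulk samples.

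**Figure D1:**
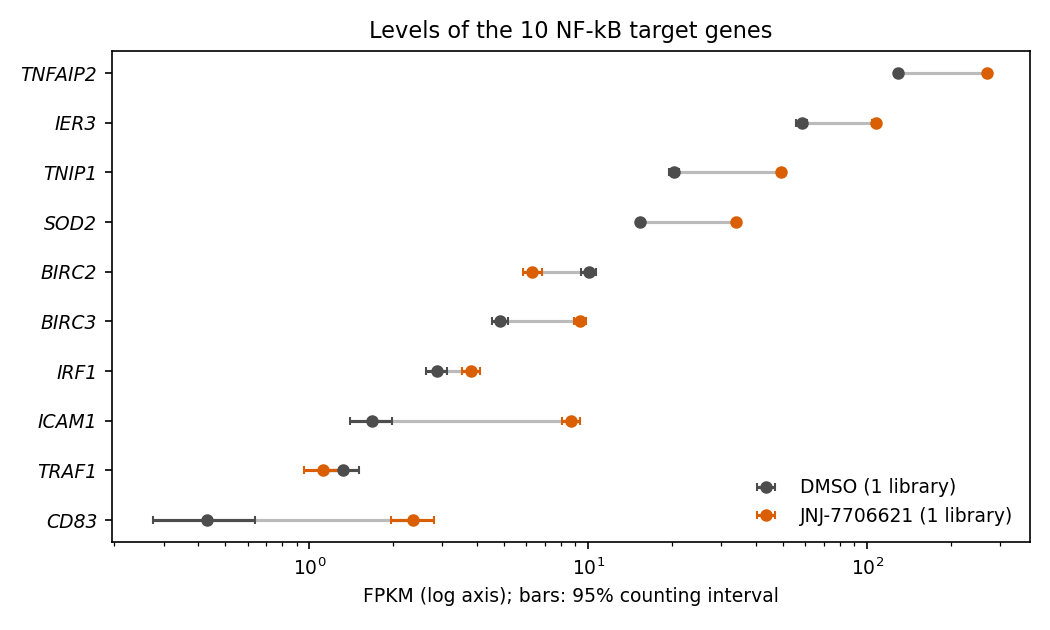
FPKM of the 10 genes (log axis) in the DMSO library (grey) and the JNJ-7706621 library (orange), 1 library each, with bars for the 95% counting interval. TNFAIP2 is highest in both libraries, at 129 and 268 FPKM, and only TRAF1 and BIRC2 have the orange point to the left.

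Differences below are on the scale of log2(FPKM + 1), JNJ-7706621 minus DMSO, which understates the change of genes with low values. To be called higher, a gene needed a log2 difference of 1 or more, to be called lower one of -1 or less, and in either case a mean of at least 1 FPKM. All 10 genes passed the filter, CD83 only through its value in the JNJ-7706621 library. Of the 10, 5 were called higher (ICAM1, TNIP1, CD83, SOD2 and TNFAIP2) and 0 were called lower. Among all 13241 genes that passed the filter, 2.39% were called higher and 1.36% lower. Without CD83 the count was 4 of 9. The median log2 difference of the 10 genes was 0.97, against -0.0032 over all 13241 genes.

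Counting error was small for most of the 10, and the FPKM ratio of JNJ-7706621 over DMSO is given with its 95% counting interval in parentheses. The interval lay above 1 for 8 of the 10 genes and below 1 for BIRC2, and it held 1 for TRAF1. Such intervals are common at this depth, above 1 for 32.8% and below 1 for 33.2% of the 13108 genes with recovered reads. They say nothing about how far a second pair of cultures would differ.

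**Figure D2:**
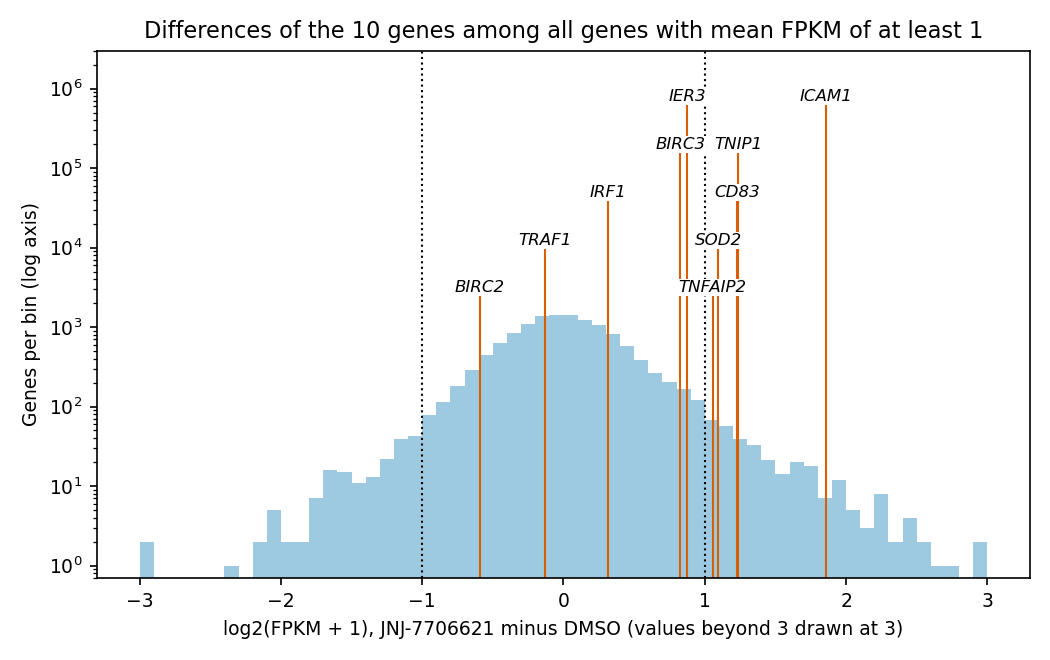
Number of genes (log axis) in bins of the log2 difference between the JNJ-7706621 and DMSO libraries, for 13241 genes with a mean of at least 1 FPKM. Orange lines mark the 10 genes, of which 5 lie beyond the dotted line at 1 and 0 lie beyond the line at -1.

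Both surface proteins of the group were among the genes called higher. ICAM1, the adhesion molecule that leukocyte integrins bind, stood at 1.67 FPKM in the DMSO library (135 reads) and at 8.69 FPKM in the JNJ-7706621 library (684 reads). The JNJ-7706621 value was 5.19 times as high (4.31 to 6.29), and the log2 difference of 1.86 ranked 44 among the 13241 genes. ICAM1 lies on chromosome 19 at 10270835 to 10286615. Exons of 2 genes on the other strand overlap 23.6% of its exon length, and the one with most of that overlap, AC011511.5, stood at 0.199 and 3.05 FPKM. Whether the authors' counting used strand is not given in the sources used here, so reads of both strands may not be separable for ICAM1.

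CD83, an immunoglobulin-type surface protein best known from mature dendritic cells, stood at 0.431 FPKM in the DMSO library and at 2.35 FPKM in the JNJ-7706621 library. Its ratio of 5.46 (3.51 to 8.84) was the highest of the 10, and it had the fewest reads in the DMSO library, 24 against 128 in the JNJ-7706621 library. Other exon lengths would also give whole reads for CD83 in place of 2384 bases: 2682 bases with 27 and 144 reads and an interval of 3.60 to 8.58, or 2086 bases with 21 and 112 reads and an interval of 3.41 to 9.17. It lies on chromosome 6 at 14117256 to 14136918, and no exon of another gene overlaps its exons.

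Of the feedback genes, TNIP1 was called higher and IRF1 was not. TNIP1, a ubiquitin-binding protein that works with the deubiquitinase TNFAIP3 to restrain NF-kB, stood at 20.3 FPKM in the DMSO library (2750 reads) and at 49.1 FPKM in the JNJ-7706621 library (6495 reads). This was 2.42 times as high (2.31 to 2.53), a log2 difference of 1.23. It lies on chromosome 5 at 151029945 to 151093577. IRF1, a transcription factor of interferon and inflammatory responses, stood at 2.86 FPKM in the DMSO library and at 3.81 FPKM in the JNJ-7706621 library. The ratio was 1.33 (1.19 to 1.496), on 520 and 676 reads, and the log2 difference was 0.32. IRF1 lies on chromosome 5 at 132481609 to 132490798, and exons of genes on the other strand overlap 22.0% of its exon length. The larger of these, C5orf56, stood at 0.400 and 0.770 FPKM.

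TNFAIP2, a protein induced by tumour necrosis factor and linked to membrane protrusions, stood at 129 FPKM in the DMSO library (15136 reads) and at 268 FPKM in the JNJ-7706621 library (30825 reads). The ratio of 2.09 (2.05 to 2.13) was the most precisely counted of the 10. The log2 difference was 1.06, just inside the rule of size. TNFAIP2 lies on chromosome 14 at 103123442 to 103137439, with no overlapping exons of other genes.

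Among the survival genes, SOD2 was called higher, IER3 and BIRC3 were just outside the rule, and TRAF1 and BIRC2 had lower values in the JNJ-7706621 library. SOD2, the superoxide dismutase of mitochondria, stood at 15.4 FPKM in the DMSO library (5900 reads) and at 34.0 FPKM in the JNJ-7706621 library (12743 reads), on chromosome 6 at 159669057 to 159745186. The ratio was 2.21 (2.15 to 2.28) and the log2 difference 1.10. The other entry named SOD2, at 159679119 to 159762529, stood at 3.01 and 4.25 FPKM with a ratio of 1.41 (1.16 to 1.72), and exons of other genes overlap 90.5% of its exon length. The larger entry was used here, and with both entries summed the log2 difference was 1.02.

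IER3, an early stress gene that affects apoptosis, stood at 58.3 FPKM in the DMSO library and at 108 FPKM in the JNJ-7706621 library, on chromosome 6 at 30743199 to 30744554. The ratio was 1.85 (1.75 to 1.96), on 1841 and 3324 reads, and the log2 difference of 0.88 missed the rule. IER3-AS1 on the other strand covers 26.5% of the exon length of IER3 and stood at 44.2 and 86.5 FPKM. Reads of IER3 and IER3-AS1 may likewise not be separable, and the part of one in the other was not tested.

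BIRC3 and BIRC2 are related inhibitors of apoptosis that ubiquitinate signalling proteins of the tumour necrosis factor receptor. Their genes are neighbours on chromosome 11, BIRC3 at 102317450 to 102339403 and BIRC2 at 102347211 to 102378670, with 7807 bases between them. BIRC3 stood at 4.84 FPKM in the DMSO library and at 9.36 FPKM in the JNJ-7706621 library, a ratio of 1.93 (1.78 to 2.10) on 850 and 1605 reads. BIRC2 had the opposite order, with 10.02 FPKM in the DMSO library and 6.31 FPKM in the JNJ-7706621 library, a ratio of 0.629 (0.570 to 0.694) on 1062 and 652 reads. The log2 differences were 0.83 and -0.59, and neither gene passed the rule of size. In the DMSO library BIRC2 was thus 2.07 times BIRC3 per exon length, and in the JNJ-7706621 library BIRC3 was 1.48 times BIRC2.

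TRAF1, an adaptor that works with BIRC2 and BIRC3 at receptors of the tumour necrosis factor family, stood at 1.32 FPKM in the DMSO library and at 1.12 FPKM in the JNJ-7706621 library. The ratio was 0.846 (0.687 to 1.04) on 207 and 171 reads, so no difference was detectable at this depth. It lies on chromosome 9 at 120902393 to 120929173.

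The values near the rule of size show how it divides the group. TNFAIP2 at 1.06 and SOD2 at 1.10 lie just inside it and IER3 at 0.88 and BIRC3 at 0.83 just outside. The FPKM ratios of these 4 genes, 2.09, 2.21, 1.85 and 1.93, lie close together.

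The relatives of the 10 genes were described for comparison. The filter was passed by 3 further inhibitors of apoptosis, 6 TRAF genes, 4 IRF genes, 1 ICAM gene and 1 superoxide dismutase gene. None of these passed the rule of size, which called 2.39% of all 13241 genes higher and 1.36% lower. A count of 0 among so few genes is thus no result about the relatives. With a rule of 1.5-fold, BIRC5, TRAF3 and SOD1 were called higher and IRF7 lower, against 8.53% and 6.77% of all genes. IRF7 was also called lower with a pseudocount of 0.1, a setting that called 3.09% of all genes lower. IRF7, at 1.72 and 0.805 FPKM, passed the filter only through the DMSO library. XIAP and BIRC6, further inhibitors of apoptosis, had log2 differences of -0.28 and -0.58, and BIRC5, which also acts in mitosis, had 0.62. BIRC3 was thus the member of that family with the most positive value. Among the TRAF adaptors, TRAF3, which holds back the noncanonical NF-kB pathway, stood at 0.59 and TRAF2 at 0.33, while TRAF6 at -0.16 was close to TRAF1 at -0.13. ICAM3 stood at -0.15, with 3.24 and 2.81 FPKM, and ICAM2, ICAM4 and ICAM5 did not reach a mean of 1 FPKM. SOD1, the cytosolic superoxide dismutase, stood at 66.5 and 102 FPKM with a log2 difference of 0.61. Of 4 IRF genes that passed the filter beside IRF1, IRF5 stood at 0.27, IRF2 at 0.24, IRF3 at -0.25 and IRF7 at -0.59. These families were described by their values only, and no difference between relatives was tested.

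**Figure D3:**
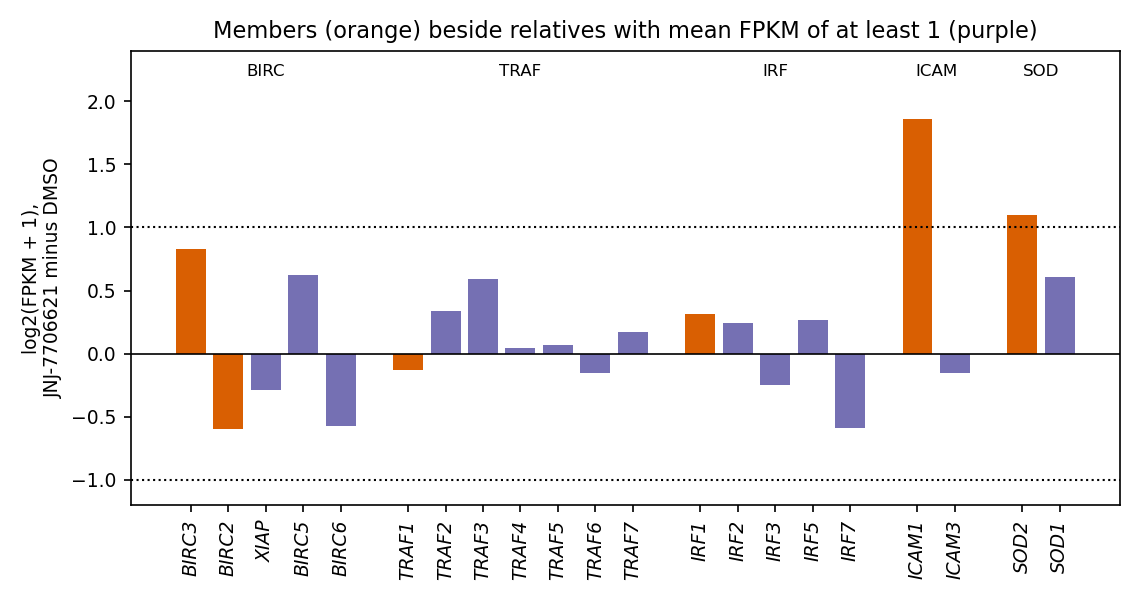
Log2 difference (JNJ-7706621 minus DMSO) of 5 of the gene families, with members of the group in orange and relatives with a mean of at least 1 FPKM in purple; dotted lines mark 1 and -1. ICAM1 at 1.86 and SOD2 at 1.10 are the bars beyond the line.

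The rest of the pathway was listed by role. Of 22 other target genes that are not secreted, 16 passed the filter, 2 were called higher and 1 lower, with a median log2 difference of 0.36. Those called were SDC4, a cell surface proteoglycan, at 2.54, PTGS2, the inducible cyclooxygenase, at 1.32, and GADD45B, a stress sensor, at -1.04, which no longer passed with a mean of at least 5 FPKM. EHD1 at 0.95 was the next in size, and VCAM1, an adhesion molecule of endothelium, had 0 reads in both libraries. Of 12 secreted targets 8 passed the filter and 7 of them were called higher, with a median of 2.01. These were the chemokines CXCL8 at 3.01, CCL2 at 2.77, CXCL1 at 2.01, CXCL3 at 2.00, CCL20 at 1.92 and CXCL2 at 1.90, and the growth factor CSF3 at 2.24, which passed the filter only through its value in the JNJ-7706621 library (0.732 and 7.19 FPKM). The median of the 10 genes, 0.97, lay between those of the other target lists, and the difference between lists was not tested.

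Among 5 NF-kB subunits 4 passed the filter. NFKB2, the subunit of the noncanonical pathway, stood at 10.9 and 31.9 FPKM and was called higher, while RELB stood at 3.02 and 5.78 FPKM, NFKB1 at 6.14 and 10.9 FPKM, and RELA at 12.2 and 12.5 FPKM. All 12 inhibitors and feedback regulators passed the filter. For NFKBID (0.950 and 1.45 FPKM) and TNIP3 (0.913 and 2.24 FPKM) this was only through the JNJ-7706621 library. The median of the 12 was 0.55, with 11 values above 0. It was 0.69 with a pseudocount of 0.1 and 0.79 with a mean of at least 5 FPKM. TNFAIP3, the partner of TNIP1, was the 1 called higher: its value was 1.78 FPKM with DMSO and 8.53 FPKM with the inhibitor, 4.79 times as high (4.12 to 5.59). NFKBIA, the main inhibitor, stood at 29.5 and 57.4 FPKM, a log2 difference of 0.94.

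The kinases and adaptors upstream had a median of -0.05 over 22 genes, 11 above 0 and 11 below. This median depended on the filter: it was 0.20 with a mean of at least 5 FPKM and -0.16 without the filter. IRAK2, a kinase of interleukin-1 receptors, was called higher at 1.91, and so was MAP3K8 at 1.01. Their largest negative value was that of MYD88, an adaptor of the same receptors, at -0.64. TRADD and RIPK1, which meet BIRC2 and BIRC3 at the tumour necrosis factor receptor, stood at -0.16 and -0.32. Of 13 receptors 5 passed the filter with a median of 0.03, which moved to 0.34 after each library was rescaled to a sum of 1000000 and to 0.20 without the filter. TNFRSF9, which signals through TRAF1, was called higher, at 0.595 and 5.01 FPKM. Of 9 ligands 3 passed, and IL1A at 2.24 and LTB at 1.84 were called higher. TNFRSF9, IL1A and LTB passed the filter only through the JNJ-7706621 library, and were not called with a mean of at least 5 FPKM.

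**Figure D4:**
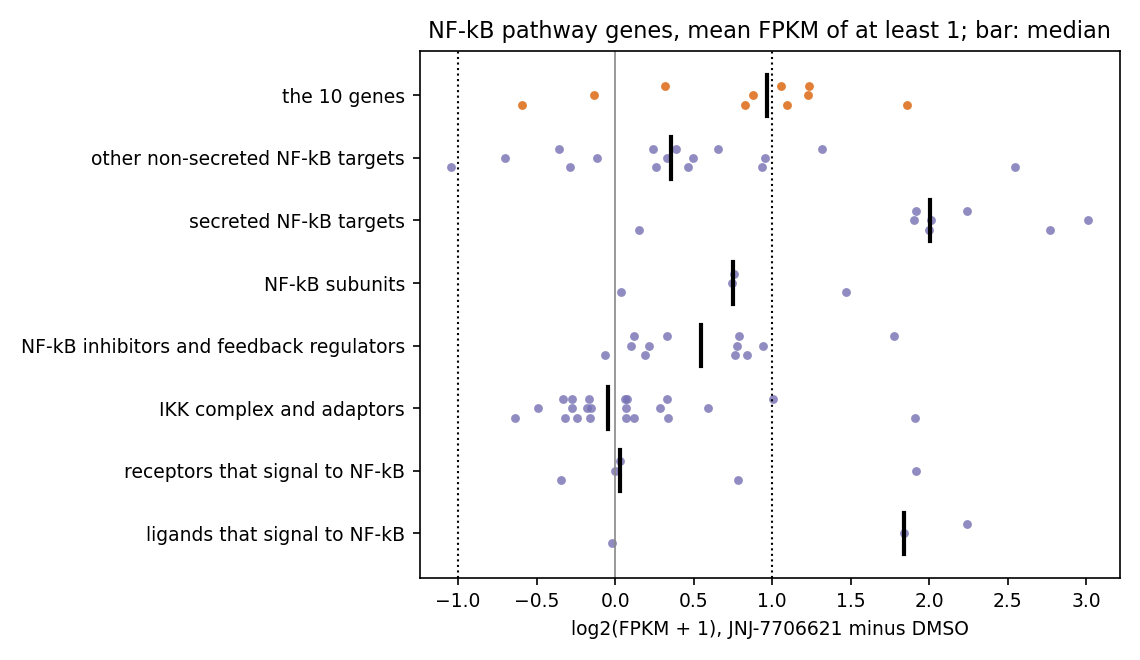
Log2 difference (JNJ-7706621 minus DMSO) of each NF-kB pathway gene with a mean of at least 1 FPKM, by role; points are genes, black bars medians, dotted lines mark 1 and -1. The median is 0.97 for the 10 genes, 2.01 for secreted targets and -0.05 for kinases and adaptors.

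AU-rich motifs in the 3' untranslated region were counted because of the subject named in the series title. Among 10154 protein-coding genes that passed the filter, the longest annotated region held a median of 2 AUUUA pentamers, and 34.8% held at least 1 UAUUUAU heptamer. Of the 10 genes, 5 held a heptamer (SOD2, BIRC3, IER3, IRF1 and ICAM1). The median of the 10 was 3.5 pentamers, and their median density was 2.04 per kilobase, against 1.54 over all genes. IER3 had 6.64 pentamers per kilobase and BIRC3 had 5.22, while CD83 had 2.38, IRF1 1.71, ICAM1 1.51 and TRAF1 0.381. SOD2 had 36 in a region of 13436 bases, or 2.68 per kilobase. TNIP1 and TNFAIP2, both called higher, had 0 pentamers in 834 and 2079 bases, while BIRC2, the gene with the most negative difference, had 3 in 487 bases, or 6.16 per kilobase. In the group, genes with and without pentamers were found among those called higher, and a relation to the differences was not tested.

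For the 5 genes with a heptamer, the 30 bases with the most pentamers are shown, with pentamers in capitals, from GENCODE release 29 transcripts. They are given so that the motifs can be compared, and neither decay nor protein binding was measured.
IER3: uaauuaauAUUUAuauguAUUUAuguacgu
BIRC3: aacaaAUUUAUUUAaucacagAUUUAcauc
SOD2: auuucAUUUAUUUAuuuuuuuAUUUAgaga
IRF1: uuggccuuugcAUUUAUUUAuacagugccu
ICAM1: ugaugauauguAUUUAuucauuuguuauuu

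The BIRC3 and SOD2 windows each hold 3 pentamers, those of IER3 and IRF1 hold 2, and that of ICAM1 holds 1. The log2 differences of these genes, in the order of the lines, were 0.88, 0.83, 1.10, 0.32 and 1.86. A window does not stand for the whole region, and a relation of pentamers to the differences was not tested.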

How the data were processed

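Per the file headers, the values the authors deposited are FPKM, 1 row for each Ensembl gene with its symbol. Build hg38 and edgeR are named, with no role, per the submitters' processing notes. Not given in the sources used here are the aligner, counter, annotation and strand setting. Columns were matched to samples by title, and 2 further columns of values, named like a second replicate of each group but matching no sample described here, were not used.

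Library totals and exon lengths were recovered from the FPKM values: with the right length, both libraries of a gene give whole reads (tolerance 0.0001). The length nearest to that of GENCODE release 29 (GRCh38) was taken, within 0.25 to 4 times. Other lengths would also give whole reads for each of the 10 genes, with other reads and intervals but the same FPKM ratios. For TRAF1, 5968 bases in place of 6714 would give 184 and 152 reads and an interval of 0.678 to 1.05. Reads were recovered for 27805 of 28014 annotated genes above 0, and made up 99.7% of each total. They served for 95% intervals of the FPKM ratio (Clopper-Pearson, exact, given the sum of reads) and for exact Poisson intervals of single values. These intervals address counting error only and leave out the spread between cultures. Reads are not independent molecules, so the intervals may be too narrow even for counting error.

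The members, lists and marker genes were chosen with earlier results of these data known. The text names all 10 members, the genes of each list that were called, up to 4 others with the largest difference, RELA, NFKB1, NFKBIA, TNFAIP3 and the markers; other names were chosen after their values were seen. Of a symbol with several entries, the one with the highest mean was used. A 3' region was read from the transcript with the longest one. Alternatives were pseudocounts of 0.1 and 0.5 in place of 1, 3 other scalings, no filter or a mean of at least 5 FPKM, and a rule of 1.5-fold; the sum of both SOD2 entries and leaving out CD83 were added after seeing the data. The calculations were tested on simulated data. Python 3.11.15, pandas 2.3.3 and scipy 1.17.1 were used.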

Additional observations from a re-analysis of the deposited data

How the results depend on the processing

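All 10 genes kept the sign of their log2 difference in 51 of 51 alternative values, from the scalings, the pseudocounts and the SOD2 sum. A pseudocount cannot change a sign, and the scalings shifted the median of all genes by less than 0.1. The kept signs are therefore no strong check. The 5 genes called higher were the same with pseudocounts of 0.1 and 0.5, under all 3 other scalings, without the filter and with the SOD2 entries summed. With a mean of at least 5 FPKM, and when CD83 was left out, the other 4 were called. With a rule of 1.5-fold, 7 were called higher, BIRC3 and IER3 in addition, and 1 lower, BIRC2. Among all genes that rule called 8.53% higher and 6.77% lower. CD83 and ICAM1 reached 2.21 and 2.31 with a pseudocount of 0.1. The counts over all 13241 genes were 316 higher and 180 lower (2.39% and 1.36%). They moved to 608 and 409 (4.59% and 3.09%) with a pseudocount of 0.1, and 274 (2.07%) were lower with 0.5. After rescaling to a sum of 1000000 the counts were 714 and 478 of 15964 genes (4.47% and 2.99%). With a mean of at least 5 FPKM they were 145 and 75 of 7057 genes (2.055% and 1.06%). The 1.5-fold rule gave 1130 and 897 (8.53% and 6.77%). In the lists of other genes, a pseudocount of 0.1 moved the inhibitors called higher from 1 to 3 and the other targets that are not secreted from 2 to 4. A mean of at least 5 FPKM left 0 of the receptors and ligands called higher and 0 of those other targets called lower. Rescaling moved the receptors called higher from 1 to 3. The 1.5-fold rule moved the inhibitors called higher from 1 to 6 and the subunits from 1 to 3. It moved the other targets from 2 to 5 and the receptors from 1 to 2. Called lower by that rule were 2 of the other targets in place of 1, and 1 of the kinases and adaptors in place of 0. Another scaling shifted the median of all genes by less than 0.1. Leaving out a library was not possible with 1 used in each group. No paired analysis was possible because 1 library was used in each group. The fewest reads in the lower library were 24 for CD83, 135 for ICAM1 and 171 for TRAF1.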

Other observations

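The filter on low values left out 36 genes of the pathway and family lists, and some of these had large ratios. Of these, 22 had at least 10 reads summed over both libraries. The counting interval of their ratio lay above 1 for 17 and below 1 for 3, against 24.4% and 16.7% of all 5957 such genes. Several reached 10 reads only through the JNJ-7706621 library, among them IL1B, TNFRSF1B, BCL2A1, IL6, CXCL10 and CCL5. For such genes the threshold favours an interval above 1, so these counts are a description and no support. IL1B, an inflammatory interleukin, had 4 reads with DMSO and 91 with the inhibitor, a ratio of 23.3 (8.80 to 87.4). TNFRSF1B, a receptor for tumour necrosis factor, had 8 and 82 reads, a ratio of 10.5 (5.09 to 25.1). BCL2A1, a survival gene of the BCL2 family that NF-kB induces, had 3 and 30 reads, a ratio of 10.2 (3.19 to 52.5), and IL6 had 3 and 49 reads, a ratio of 16.7 (5.40 to 83.9). CXCL10 and CCL5 had 0 reads with DMSO and 19 and 21 with the inhibitor. These genes were chosen after their values were seen. REL, RNF31 and TLR5 went the other way, with ratios of 0.569 (0.431 to 0.747), 0.561 (0.344 to 0.898) and 0.548 (0.315 to 0.930).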
